A study of Homo sapiens with 2 samples.

Results

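Insulin and the insulin-like growth factors act through a small set of proteins, and the messages of 6 of them are described here at single-base resolution for N6-methyladenosine (m6A), the most common internal mark of mRNA. The set holds 3 receptors and 3 adaptors. IGF1R and INSR encode the tyrosine kinase receptors for IGF-1 and for insulin, and IGF2R encodes the cation-independent mannose 6-phosphate receptor, which takes up IGF-2 and carries lysosomal enzymes. IRS1, IRS2 and IRS4 encode insulin receptor substrates, docking proteins that the activated receptors phosphorylate and that then recruit PI3 kinase. Every listed site whose gene name was one of these 6 symbols was taken, which gave 158 of the 93541 sites found in either of 2 libraries, in 6 of 11406 named genes.

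The cells were wild-type HEK293T, an established human embryonic kidney line that carries the SV40 large T antigen, labelled day 0, with no treatment named but GLORI, and both libraries belong to that 1 group. Each library was made from 100 to 200 ng of oligo(dT)-purified mRNA with GLORI and a modified eCLIP library protocol. In GLORI, glyoxal and nitrite turn unmethylated adenosine into inosine (read as G) while m6A is still read as A. The methylation level of a site is the share of A among its A and G reads. The deposited lists hold only sites with at least 15 reads, at least 5 A reads and a level of at least 10%, so an unlisted adenosine may be unmethylated or too thinly covered, and at 15 reads no level below 33.3% can be listed.

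m6A is placed in the nucleus by the METTL3 and METTL14 methyltransferase, often in long exons and around the stop codon, and reader proteins that bind it shorten the life of many messages. Signals from the insulin and IGF receptors pass through the IRS proteins to PI3 kinase, AKT and mTOR, which govern growth and nutrient uptake. IRS4 has a narrow range of tissues in adults, and HEK293 cells are the line in which the protein was characterised. Of the 5 genes taken as markers of this line, all were listed in both libraries (IRS4, PAX2, LIN28B, IGF2BP1 and NEFM), while the 5 markers of other cell types (PTPRC, ALB, LYZ, TYR and COL1A1) had 0 listed sites. A site list is no measure of expression, so the second count bounds nothing. The first is no test of cell identity, since 11406 named genes were listed in either library. IRS4 is itself a member, and PAX2 had only 1 site listed in both libraries.

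Replicate 1 listed 72449 sites with a median of 40 reads, and replicate 2 listed 81554 with a median of 42. Both libraries listed 60462 sites, here called shared sites. Shared sites were compared between the libraries by their A and G reads. Fisher's exact test (two-sided, Benjamini-Hochberg adjustment) called 0 of them (0%) at an adjusted p under 0.05 and 1850 (3.06%) at an unadjusted p under 0.05, and a chi-square test called 0 and 2590. The mean chi-square of the difference was 0.931 over all shared sites, where sampling of reads alone gives a value near 1 for deeply read sites. No single shared site was thus set apart from sampling of reads, and both libraries together were counted as 1 sample. The test can miss differences at sites with few reads, and sites listed in 1 library only were not tested. A site that fell below a limit of the lists in 1 library is left out in this way. The mean chi-square may therefore understate the differences between the libraries. The mean over all shared sites was nevertheless 0.31 points higher in replicate 1 (95% counting interval 0.24 to 0.39). Each value below is that of a library or the mean of both, with no SD, and every error is a counting error.

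The members differed widely in how many sites they showed, within both the receptors and the adaptors. IGF1R, the IGF-1 receptor, had 47 sites in replicate 1, 60 in replicate 2 and 46 shared. INSR, the insulin receptor, had 18, 21 and 15. IGF2R had 9, 9 and 7. Among the adaptors, IRS4 had 48, 45 and 43, IRS2 had 6, 7 and 3, and IRS1 had 1, 1 and 0. The receptors thus held 68 shared sites and the adaptors 46, of which IRS4 alone gave 43. That order depended on depth, since among sites with at least 30 reads in both libraries the receptors' count minus the adaptors' was -2, and among those with at least 50 reads it was -30. Only 19 of the 9521 genes with a shared site had more of them than IGF1R, which ranked 20, and IRS4 ranked 21. INSR ranked 773 and IGF2R 2449, and IRS2 was among the 5838 genes with at least 3. The median gene had 4.

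Depth differed between the members by a wide margin, and the count of sites followed it only in part. The deposited gene coverage was 373.9 in replicate 1 and 436.04 in replicate 2 for IRS4, which placed it at rank 229 and 228 among all listed genes. It was 40.04 and 45.4 for IGF2R, 28.7 and 34.3 for IGF1R, 16.97 and 18.9 for INSR, 10.8 and 12.0 for IRS2, and 8.16 and 8.93 for IRS1. IRS1 ranked 10263 of 10321 genes in replicate 1 and 10731 of 10879 in replicate 2, so it lay near the lowest coverage at which any gene was listed. The coverage of IGF1R was near the medians of all listed genes (29.3 and 31.6), and among the 952 genes of its coverage decile it ranked 2 for shared sites, where the median was 5. IRS4 ranked 5 in the highest decile, a wide one (coverage 131.3 to 7763.7), where the median was 2. INSR ranked 48 in a decile with a median of 4, IGF2R 343 with a median of 5, and IRS2 176 of 953 with a median of 2. These ranks match genes by coverage only. Message length, which needs an exon annotation, was not taken into account.

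**Figure D1:**
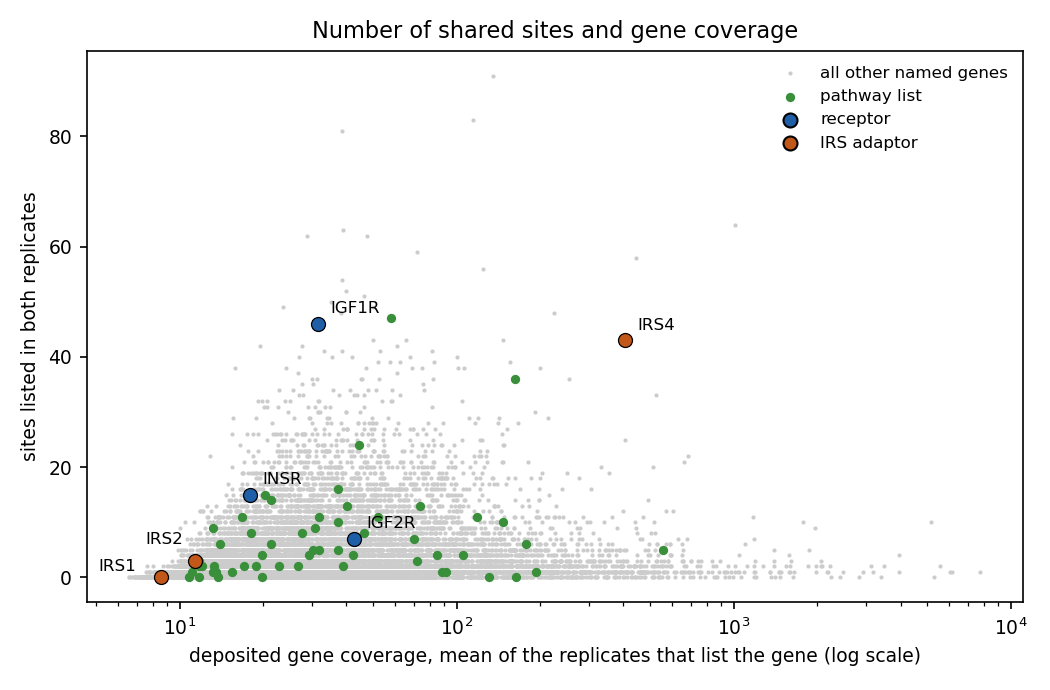
Number of sites listed in both replicates (vertical axis) against the deposited gene coverage (horizontal axis, log scale) for every named gene in grey, the pathway list in green, the receptors in blue and the IRS adaptors in orange. IGF1R (46 sites) stands at a middling coverage and IRS4 (43 sites) at a high one, while IRS1 (0) and IRS2 (3) lie at the low end.

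The mean level over listed sites differed little between the members, but the lowest level that can be listed depends on depth. At 15 reads it is 33.3%, so weak sites of thinly read members are missing. Their means are therefore not strictly comparable with that of the deeply read IRS4. Over shared sites it was 50.04% ± 0.82 in IGF1R (counting SE, 46 sites), 44.4% ± 1.4 in INSR (15 sites), 44.6% ± 1.7 in IGF2R (7 sites), 39.5% ± 4.1 in IRS2 (3 sites) and 46.4% ± 0.24 in IRS4 (43 sites). IRS1 had no shared site and enters no mean. In descending order IGF1R stood above IRS4 by more than the 95% counting interval of their difference, and IRS4, IGF2R, INSR and IRS2 followed one another within theirs. This order depended on the sites and on the average taken. IGF1R lay below IRS4 when the reads of all sites were pooled (47.9% in IGF1R and 52.5% in IRS4) and at a coverage of at least 50 reads (41.2% and 46.4%). It was also lower at a level of at least 20% (53.6% and 55.8%) or 35% (67.8% and 71.4%), and over all sites listed in replicate 2 (43.5% and 45.4%). IGF1R stayed above IRS4 at a coverage of at least 30 reads (50.4% and 46.4%), with medians over sites (43.9% and 34.8%) and with sites of either library (44.8% and 41.9%). The same held over all sites listed in replicate 1 (51.5% and 42.6%) and over shared sites in replicate 2 (47.8% and 46.6%). With sites of either library IRS2 was the highest, at 56.7%. The mean of the gene means was 46.4% ± 0.79 for the 3 receptors and 42.9% ± 2.05 for the 2 adaptors with shared sites, a difference of 3.46 percentage points (95% counting interval -0.84 to 7.76). No test was made of this difference, since genes are not replicates. Its sign depended on the sites kept, and it was -5.73 points (-7.55 to -3.92) among sites with at least 30 reads in both libraries, where IRS2 had none left.

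The members were also set against the genes of their coverage decile. The median gene mean in the coverage decile was 48.6% for IGF1R, 54.99% for INSR, 44.3% for IGF2R, 58.6% for IRS2 and 31.02% for IRS4. The level of IRS4 was higher than that of 80.6% of the genes in its decile, that of IGF1R than 53.9%, that of IGF2R than 50.7%, that of INSR than 27.5% and that of IRS2 than 19.4%. IRS4 thus combined many sites and a high mean level within the highest decile. That decile spans coverages of 131.3 to 7763.7, so its genes are only loosely matched to IRS4.

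The spread within each message was far wider than the spread between them. Levels of single shared sites ran from 16.8% to 95.5% in IGF1R, from 14.9% to 82.6% in INSR, from 20.6% to 95.7% in IGF2R, from 26.8% to 57.9% in IRS2 and from 11.4% to 98.1% in IRS4. Over all members the median was 41.2% with quartiles at 25.5% and 65.3%, against 44.6% with quartiles at 25.8% and 73.5% over all shared sites. Levels of at least 80% were found at 20 of the 114 member sites (17.5%), 10 in IRS4, 7 in IGF1R, 2 in IGF2R and 1 in INSR, against 19.8% of all shared sites. Levels under 20% were found at 15 member sites (13.2%), 10 of them in IRS4, against 15.2%. Sites with few reads cannot be listed at such levels, and IRS4 was the most deeply read member.

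**Figure D2:**
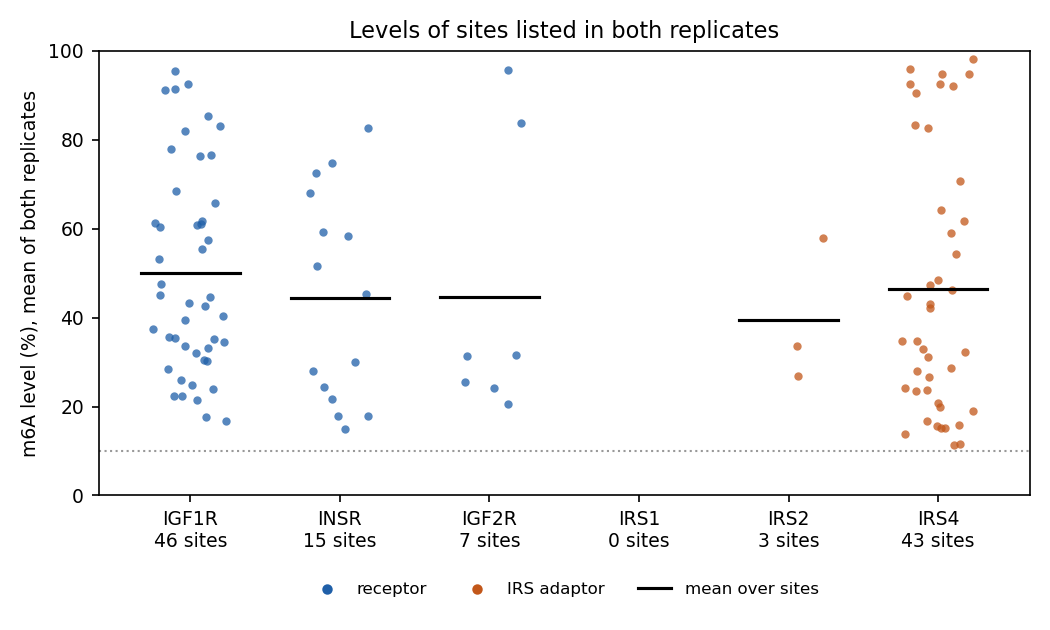
Level of each shared site, as the mean of both replicates in percent (vertical axis), by member, with receptors in blue and IRS adaptors in orange; the bar is the mean over sites and the dotted line the 10% limit of the lists. The means lie between 39.5% and 50.04% while single sites span nearly the whole listed range, and IRS1 has none.

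IGF1R carried its sites in a few stretches of a gene of 315992 nt (chromosome 15, plus strand, 98648539 to 98964530 in the RefSeq annotation of GRCh38.p14). Sites at most 1000 nt apart were joined into blocks. Near the start, positions 98649112 and 98649132 lay 573 and 593 nt into the gene. They were methylated at 54.9% and 83.0% in replicate 1 and at 51.6% and 72.9% in replicate 2. A second block, 59080 to 59467 nt from the start, held 8 shared sites in 388 nt. Its strongest site was 98707934, with 91.8% (73 reads) in replicate 1 and 90.7% (107 reads) in replicate 2. Position 98913177 stood alone. The remaining 35 shared sites lay within 7463 nt of the gene end, 18 of them in a block of 1817 nt and 17 in one of 2959 nt.

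High and low sites of IGF1R alternated over short distances. The highest of all was 98961735, with 94.9% in replicate 1 and 96.2% in replicate 2 (summed counts 95% Wilson interval 89.3 to 98.3), 2795 nt before the gene end. Position 98958043 had 91.8% and 91.04%, and 98957367 had 85.0% and 85.7%. The lowest shared site, 98958155, was also the one with the most reads (226 in both libraries), at 14.5% and 19.0%. Its upstream neighbour 98958126, 29 nt away, had 43.7% and 31.1%. At positions 98958209, 98958230 and 98958235, the mean levels were 35.4%, 68.4% and 83.1%. Both libraries placed the first of these below the other two.

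INSR showed a like arrangement in a gene of 182150 nt (chromosome 19, minus strand, 7112265 to 7294414). An upstream block 26591 to 27048 nt from the gene start held 7 shared sites in 458 nt, and a block 4972 to 3223 nt from the gene end held 6. A pair lay between them, at 7184460 with 24.1% and 24.5% and at 7184445 with 14.9% and 21.1%. Position 7267823, the first site of the upstream block, had the highest level, 93.8% in replicate 1 but 71.4% in replicate 2, on 16 and 21 reads (interval 65.8 to 90.5). The most deeply read site was 7184460 with 107 reads, and the lowest was 7116976 with 15.2% and 14.7%. Near the gene end, 7116286 and 7116278 had 75.7% and 67.4% in replicate 1, and 73.8% and 49.1% in replicate 2. The pair 7115493 and 7115488, 5 nt apart, had 64.1% and 71.1% in replicate 1, and 39.02% and 73.8% in replicate 2.

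IGF1R and INSR encode closely related receptors, and both messages had a short upstream block (388 nt in IGF1R and 458 nt in INSR) and a group of sites near the gene end. The layout is not particular to this pair, since IRS4 also had an upstream block and one near the gene end. How common it is among other genes was not tested. The upstream blocks had mean levels of 51.7% in IGF1R and 41.9% in INSR, and the sites near the end 52.7% and 46.2% in the 2 blocks of IGF1R and 55.2% in INSR. Which exon each block belongs to, and whether it is coding, was not analysed here, since no exon annotation was used.

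**Figure D3:**
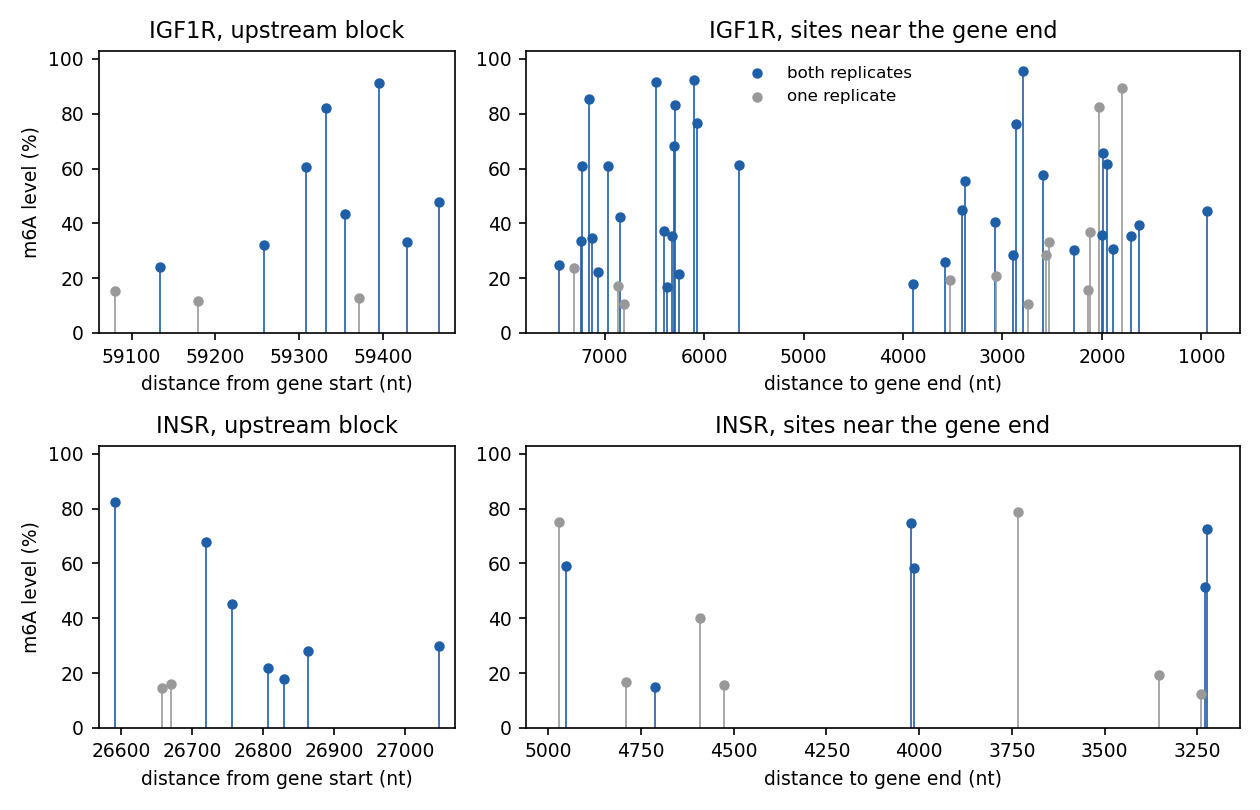
Level of each listed site (percent, vertical axis) along the upstream block (left, by distance from the annotated gene start in nt) and near the gene end (right, by distance to it in nt) of IGF1R (top) and INSR (bottom), with sites of both replicates in blue and of one replicate in grey. Both genes show strongly and weakly methylated sites side by side, from 10.4% to 95.5% in the last block of IGF1R.

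IGF2R, the least marked receptor by number of sites, had 6 of its 7 shared sites in 1 block between 6673 and 5140 nt before the gene end (chromosome 6, plus strand, gene 159969082 to 160111504). A pair of these was strongly methylated. Position 160104831 had 91.3% in replicate 1 (21 of 23 reads) and 100% in replicate 2 (28 of 28), with an interval of 86.8 to 98.9. Position 160105148 had 84.8% and 82.8%. The other 5 shared sites of the gene lay at 20.6% to 31.5%, among them 160105121, which is 27 nt from 160105148 and had 22.0% and 26.3%, and 160105619, the most deeply read with 172 reads, at 30.1% and 32.9%. The lowest was 160085006, the 1 shared site outside the block, at 22.9% and 18.4%. IGF2R thus had 2 strong and 5 weak sites and none between 31.5% and 83.8%. Among sites with at least 30 reads in both libraries its mean was 26.6%, because both strong sites had fewer in at least 1 library.

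IRS4 was the best measured member. It lies on chromosome X (minus strand, 108719946 to 108736563). In its upstream block, 38 shared sites lay 433 to 3757 nt from the gene start with 94 to 2148 reads each in replicate 1, and between 123 and 2623 in replicate 2. A second block near the gene end held 5. The shared site with the highest level was 108734585, at 98.0% in replicate 1 (146 of 149 reads) and 98.3% in replicate 2 (173 of 176), with an interval of 96.03 to 99.2. The lowest was 108734487, 98 nt further along the message, at 11.7% and 11.03%. The most deeply read was 108733013, at 93.1% (1956 of 2100 reads) and 91.7% (2406 of 2623).

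Levels in IRS4 fell into a strong group and a broad remainder. The strong group had 10 sites, from 82.6% to 98.1%, and the next site below was 108736041 at 70.7%. Of these 10, 9 lay in the upstream block. They were, in order along the message, 108735407 at 83.4%, 108734873 at 95.97%, 108734585 at 98.1%, 108734030 at 92.1%, 108733882 at 82.6%, 108733571 at 94.7%, 108733525 at 90.6%, 108733373 at 92.6% and 108733013 at 92.4%. The 10th, 108722374, was in the second block, with 94.3% in replicate 1 and 95.2% in replicate 2. All 10 lay above 80% in both libraries. Between them stood sites such as 108733796 at 15.1% and a run of 3, 108733301, 108733269 and 108733247, at 15.7%, 15.1% and 15.9%.

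Neighbouring listed sites of IRS4 could differ more than the members did from one another. Position 108733586 had 18.9% and 20.8%, while 108733571, 15 nt downstream, had 93.8% and 95.7%. Position 108734030 had 90.0% and 94.2%, while 108734024, 6 nt downstream, had 26.3% and 21.9%, and 108734012, a further 12 nt on, had 46.2% and 46.03%. Position 108733028 had 34.5% and 35.01%, against 93.1% and 91.7% at 108733013, 15 nt downstream. Position 108732883 had 23.1% and 23.9%, against 53.6% and 54.9% at 108732878, 5 nt downstream. The 95% Wilson intervals on summed counts did not overlap in 6 of the 7 IRS4 pairs of adjacent shared sites at most 30 nt apart, against 61.4% of such pairs in all named genes. The exception was 108733269 and 108733247. IRS4 is read far more deeply than most genes, which narrows its intervals, so these shares cannot be compared directly.

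Over all members 22 such pairs had a median difference of 23.3 points, and the intervals were apart in 13 (59.1%). Over the 10496 pairs of all named genes the median difference was 23.9 points, and the intervals were apart in 6440 (61.4%). A difference of at least 40 points was found in 4 of the 22 member pairs (18.2%), 3 of them in IRS4 and 1 in IGF2R, against 29.98% of all pairs.

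**Figure D4:**
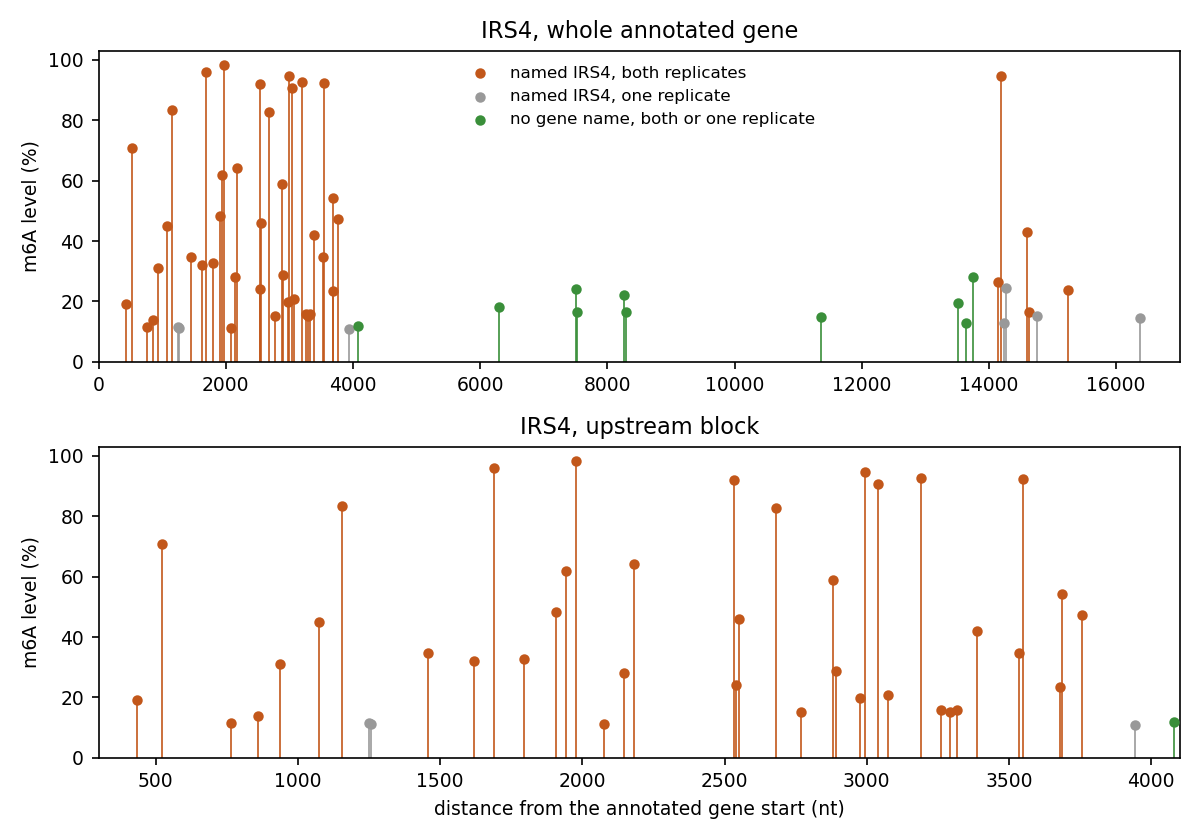
Level of each site (percent, vertical axis) by distance from the annotated start of IRS4 in nt, over the whole gene (top) and in the upstream block (bottom), with sites named IRS4 in both replicates in orange, in one replicate in grey, and sites on the same strand that carry no gene name in green. Strong sites of 82.6% to 98.1% alternate with weak ones in the upstream block, and the shared unnamed sites lie at 11.9% to 28.03%.

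The stretch between the 2 named blocks of IRS4 also held listed sites, which the deposited files leave without a gene name and which were not counted as members. There were 10, all on the strand of IRS4, 4081 to 13754 nt from the annotated start, and 8 were shared. Their levels were low throughout. The highest was 108722809, at 24.1% of 145 reads and 31.9% of 166. Position 108728304 had 23.5% (200 reads) and 21.0% (267 reads), and position 108732482 had 12.0% and 11.9%. The mean over the 8 was 19.6% ± 1.2 (counting SE), against 46.4% ± 0.24 over the sites named IRS4, and 27 of the 43 named sites lay above the highest of the 8. Over all 4356 shared sites without a gene name the mean level was 47.2% and the median 41.9%. The median over the 8 was 18.8%. Fisher's exact test separated the libraries at 0 of the 8 (smallest unadjusted p = 0.132, adjusted p = 1). These sites had fewer reads than most named ones, with a range of 35 to 219 in replicate 1 and of 37 to 307 in replicate 2. Which transcript gives these reads was not tested. In the other members' annotated spans 1 further site, in IGF2R, had no gene name, and it was listed in 1 library.

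IRS2 and IRS1 were measured at the edge of the lists. IRS2 (chromosome 13, minus strand, 109752695 to 109786583) had 3 shared sites, 3468 to 4500 nt from the gene start. Position 109783115 had 55.0% in replicate 1 (11 of 20 reads) and 60.9% in replicate 2 (14 of 23), with an interval of 43.3 to 71.6. Position 109782327 had 28.6% and 25%, and position 109782083, the most deeply read of the 3 with 47 reads, had 27.3% and 40%. A further 7 sites were listed in 1 library each. Positions 109785299 and 109784417 were read as A in 17 of 17 and 15 of 15 reads of replicate 1, with intervals of 81.6 to 100 and 79.6 to 100, and were not listed in replicate 2. IRS1 (chromosome 2, minus strand, 226731312 to 226799820) had 226797525 in replicate 1 alone, at 27.8% (5 of 18 reads), and 226796202 in replicate 2 alone, at 60.0% (9 of 15). The intervals of these, 12.5 to 50.9 and 35.7 to 80.2, overlap. At this depth IRS1 cannot be ranked against the other adaptors.

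Conversion of adenosine, which sets the background of unconverted A, was lower in each of the 3 IRS genes than in any of the 3 receptors. The deposited conversion fraction was 96.6% and 96.9% for IGF1R, 96.8% and 97.04% for INSR and 98.1% and 98.3% for IGF2R. It was 95.8% and 95.5% for IRS1, 95.045% and 94.7% for IRS2 and 96.2% and 96.3% for IRS4. Only 4.91% of genes in replicate 1 and 3.64% in replicate 2 had a lower value than IRS2. The part of this in the IRS2 levels was not tested.

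Agreement of the libraries was then taken member by member. Of the 114 member sites tested, Fisher's exact test called 0 at an adjusted p under 0.05 (0% of all shared sites), and 6 had an unadjusted p under 0.05 (background 3.06%). These 6 were 4 of IGF1R (8.70% of its shared sites), 1 of INSR (6.67%) and 1 of IRS4 (2.33%). The mean chi-square was 1.26 in IGF1R, 1.06 in INSR, 0.736 in IGF2R, 0.356 in IRS2 and 0.889 in IRS4. In IGF1R, 98913177 had 12.7% in replicate 1 and 31.8% in replicate 2 (Fisher's exact test, p = 0.0169). The other 3 were higher in replicate 1, with 98707894 at 57.6% and 29.03% (exact p = 0.0259), 98708006 at 66.7% and 28.6% (exact p = 0.0257) and 98958430 at 100% and 84.8% (exact p = 0.0246). The INSR site was 7115493 (exact p = 0.0282), and the IRS4 site was 108735106, at 31.6% and 38.1% (exact p = 0.0284). Each of these 6 had an adjusted p of 1.

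Over its 46 shared sites IGF1R had a mean of 52.3% in replicate 1 and 47.8% in replicate 2, a difference of 4.42 points (95% counting interval 1.19 to 7.65), with 29 sites higher in replicate 1 and 17 in replicate 2. Over all shared sites the difference was 0.31 points (0.24 to 0.39). In INSR it was 3.01 points (-2.60 to 8.62), and in IGF2R 0.76 points (-5.89 to 7.41). In IRS2 it was -5.01 points (-21.0 to 11.02). In IRS4 it was -0.45 points (-1.39 to 0.50), and the largest difference at any of its sites was 7.56 points. The median absolute difference per site was 1.67 points in IRS4, 7.64 in IGF1R, 3.12 in INSR, 4.36 in IGF2R and 5.87 in IRS2. IRS4 levels thus repeated most closely, and IRS4 was also the most deeply read.

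**Figure D5:**
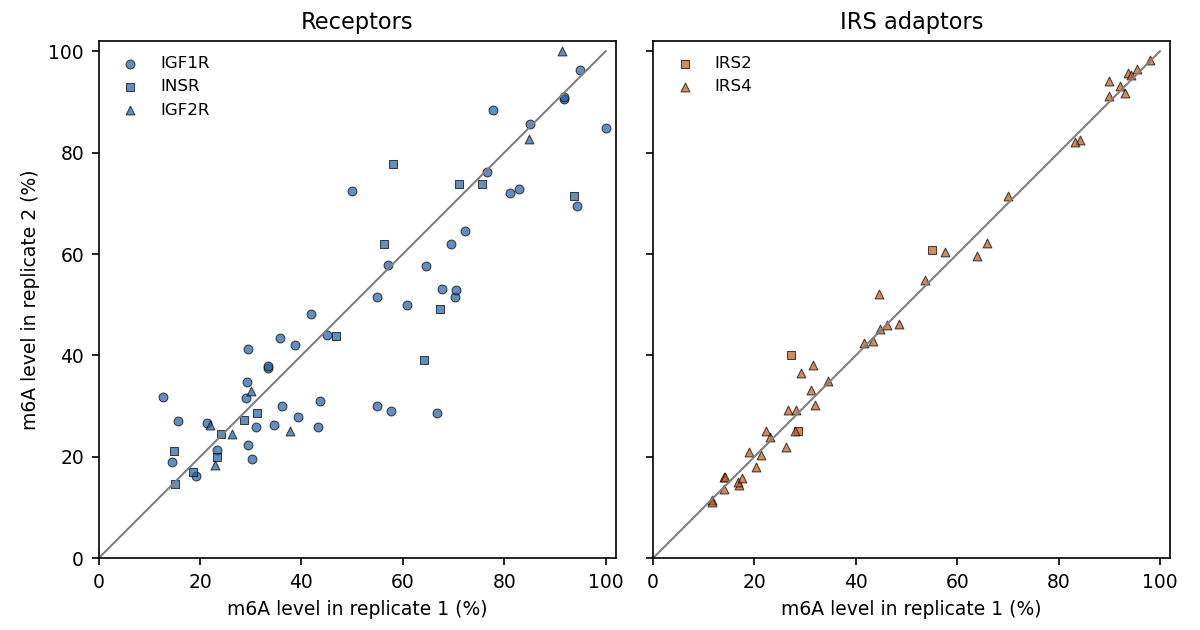
Level of each shared member site in replicate 2 against replicate 1, in percent, for the receptors (left, blue) and the IRS adaptors (right, orange), with the line of equal levels. The deeply read IRS4 sites follow the line within 7.56 points, and the sites of IGF1R and INSR scatter more widely.

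Sites listed in 1 library only numbered 44 of the 158. IGF1R had 1 in replicate 1 and 14 in replicate 2, and IRS4 had 5 and 2. The gene coverage of both was higher in replicate 2, and its part in these counts was not tested. The 14 of IGF1R had a median level of 19.04%, though 98962729 was at 89.5% (17 of 19 reads) and 98962496 at 82.6% (19 of 23 reads). In IRS4 all 7 such sites lay between 10.9% and 24.4%. At 108735306 and 108735312, replicate 1 had 1397 and 1235 reads and levels of 11.2% and 11.7%, close to the 10% limit, and replicate 2 did not list them. Replicate 2 listed 88.4% of the member sites of replicate 1, and replicate 1 listed 79.7% of those of replicate 2, against 83.5% and 74.1% over all sites.

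The wider pathway was read from a list of 68 genes from ligand to target. Of these, 55 were listed in either library and 49 had a shared site, 378 sites in all. Their median number was 5 and their median level 51.4%, against 4 and 46.6% over the 9521 genes with a shared site. The number of shared sites was above the median of the coverage decile in 25 and below it in 15, and the level was above in 32 and below in 17. The same split was not counted over all genes, and many genes tie with a decile median of few sites. The counts above and below therefore show no excess by themselves. At least 5 shared sites were found in 27 of the 55 listed genes (49.1%), against 35.2% of all listed genes.

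None of the ligands INS, IGF1 and IGF2, nor the related receptor INSRR, was listed. Of the 8 genes in the binding protein group of the list, IGFBP5 had 24 shared sites at 60.2% ± 0.85 (counting SE) and IGFBP2 had 1 at 12.2% ± 1.4, and the other 6 had 0. All 10 docking and adaptor genes had shared sites, 85 in all, and 36 of them were in CRKL, an SH2 and SH3 adaptor, at 51.4% ± 0.47. The 15 inhibitor genes had 68 in 11 genes. PHLPP1, a phosphatase that acts on AKT, had 15 at 58.3% ± 1.5. TRIB3, a pseudokinase that binds AKT, had 8 at 66.5% ± 1.5. PTPN1, which dephosphorylates the insulin receptor, had 7 at 26.1% ± 1.1. GRB14, PTPN2, SOCS1 and SOCS3 had 0 shared sites.

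Of the 6 PI3 kinase subunit genes 5 had shared sites, 21 in all, and PIK3R3 had 0. The 18 kinase and mTOR genes had 91 in 15 genes. PDPK1, the kinase that activates AKT, had 14 at 43.8% ± 1.4. RPTOR, the scaffold of mTOR complex 1, had 11 at 65.9% ± 1.6, and EIF4EBP1, the translation repressor that mTOR phosphorylates, had 5 at 32.7% ± 1.6. GSK3A, RICTOR and RPS6KB2 had 0. Among the 7 targets, the transcription factor genes FOXO3 and FOXO1, which AKT inactivates, had 47 sites at 47.6% ± 0.55 and 9 at 69.8% ± 2.1. TBC1D4, the AKT substrate that controls glucose transporter traffic, had 16 at 49.3% ± 1.2, and the transporter SLC2A4 had 0 shared sites. FOXO3 and PDPK1 have near-identical copies elsewhere in the genome, and the sources used here do not say how reads were divided between such copies, so their values are uncertain. FOXO3, with 47 shared sites, had 1 more than IGF1R, and the other genes of the list had fewer. The levels of the listed genes were not matched for depth, and thinly read genes lack weak sites. Among those named for level, the median gene mean of the coverage decile was 58.6% for FOXO1, 44.3% for TRIB3 and 48.6% for RPTOR. It was 40.05% for PTPN1 and 31.02% for EIF4EBP1, so EIF4EBP1 lay slightly above the median of its decile.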

How the data were processed

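GLORI libraries of 2 replicates of wild-type HEK293T cells were used. Per the file headers, the authors deposited for each listed site the count of A and G reads, the count of A reads, their ratio as a fraction, a p-value, raw and adjusted, and for each gene a conversion fraction and a coverage signal. The deposited p-values were not used. Per the submitters' processing notes, the build was GRCh38 and the tools included SAMtools, Bowtie, STAR and Trim Galore 0.6.6. For the site caller, molecular identifiers and annotation, the sources used here give nothing. The p-values set the difference between the 2 libraries against sampling of reads and do not estimate a spread between libraries. The labels do not tie the replicates to separate cultures, so any difference may be technical.

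Sites were matched by chromosome, position and strand, and a site's level is the mean of both levels. Fisher's exact test (SciPy 1.17.1) was run on all 60462 shared sites with Benjamini-Hochberg adjustment at 0.05. It was tested on simulated reads in which only deeply read sites were changed. A counting SE takes the binomial variance of each site with 1 A and 1 G read added. Intervals of single sites are 95% Wilson intervals. They cover counting error only, since reads may not be independent molecules. Gene bounds came from RefSeq's annotation of GRCh38.p14, and all 158 member sites lay inside them. Coverage deciles were cut over genes with a shared site. The list of pathway genes holds 69 symbols, of which 68 were RefSeq symbols and were used. The members and lists were chosen with earlier results of these data known. In each member the highest, lowest and most deeply read shared site were named, with neighbours at most 30 nt apart and sites with an unadjusted p under 0.05. In the list the 6 genes with the most shared sites were named, with the 3 highest and 3 lowest levels among those with at least 5, of which 1 is not reported here. Other sites named were chosen after their values were seen. The alternatives tried were other minimums of coverage and level, each library alone, sites of either library, pooled and median levels, and a chi-square test. Sequence context and coding or untranslated position, which need a genome, were not analysed here.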

Additional observations from a re-analysis of the deposited data

How the results depend on the processing

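The total of 114 shared member sites was 84 at a coverage of at least 30 reads, 95 at a level of at least 20% and 158 with sites of either library, and moved to 56 at a coverage of at least 50 reads and to 56 at a level of at least 35%, a limit chosen after seeing the data. With 1 library left out it was 129 to 143. The receptors' 22 more sites than the adaptors turned to -2 at 30 reads and -30 at 50 reads, where IRS4 kept 43 and the receptors had 13 left. The difference was 12 at a level of at least 35%, 34 with either library and 19 to 37 with 1 library left out. The mean of the member means, 44.99%, was 42.1% at 30 reads, 39.7% at 50 reads, 49.8% at a level of at least 20%, 70.2% at 35% and 37.8% with medians over sites, and 43.6% to 45.9% with 1 library left out. The receptors' level minus the adaptors', 3.46 points, was 3.59 at a level of at least 20%, 9.18 at 35% and 5.97 with medians over sites. It was -5.73 at 30 reads, -10.03 at 50 reads and -2.56 with pooled levels. With sites of either library it was -7.84, and with 1 library left out -10.3 to 1.21. In these last settings IRS1 enters as a gene mean, on 2 sites with either library and on 1 site with 1 library. IRS2 has no site at 30 reads and INSR none at 50. Fisher's exact test between the libraries called 0 sites at a minimum of 15, 30 and 50 reads, and the chi-square test 0 (2590 unadjusted, 7 of them in members, against 1850 and 6 by Fisher's test). The shares in coding sequence, in 3' UTRs and in the m6A consensus were not run, for want of a genome. No paired analysis was possible because there is 1 group. Depth limits IRS1 and IRS2 most. Why values moved was not tested beyond which sites each limit leaves.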

Other observations

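Spacing of the member sites was also read. Of the 36 distances of 4 to 200 nt between adjacent shared sites of IRS4, 18 (50%) were multiples of 3, as were 14 of 32 (43.8%) in IGF1R and 3 of 9 (33.3%) in INSR. Over all named genes the share was 38.7% of 32843 distances. These counts are a description of 3 messages with few distances each.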
